A study of Mus musculus with 4 samples.

Results

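Osteopontin, encoded by Spp1, and 5 receptor genes (Cd44, Itgav, Itgb1, Itgb3 and Itgb5) were followed across the cells of the mouse spinal cord. The 6 genes were taken by symbol from the 32285 genes of the deposited tables, and all 6 were found. For each, the unique molecular identifiers (UMIs, counted transcript molecules) of the cells of a marker-defined class were added up library by library and scaled to a total of 1e6, giving CPM. The P301S transgene encodes a mutant form of human tau, and the labels call its genotype hom (homozygous) or neg (negative). The 4 groups were P301S hom mice with the CD8 KO genotype at 30 weeks of age (the library labelled CD8 KO), P301S hom CD8 WT mice aged 33 weeks (33-week P301S hom) or 30 weeks (30-week P301S hom), and P301S neg mice, CD8 WT and aged 30 weeks. What was done to the CD8 locus and the promoter that drives the transgene are not given in the sources used here. Each group was 1 library from 2 mice whose cords were pooled after saline perfusion, dissociated with a tumour dissociation kit and freed of myelin with beads. There were therefore no replicates, no test between groups was made, and the spread between mice of 1 group and sex is unknown. Intervals in parentheses are 95% intervals that cover counting error only, namely exact Poisson for CPM, exact Clopper-Pearson for shares and exact conditional binomial for folds.

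Osteopontin is a secreted, heavily phosphorylated glycoprotein of bone matrix and of activated macrophages and microglia. Its arginine-glycine-aspartate motif binds integrins made of an alpha and a beta subunit, among them the alpha v integrins formed by the products of Itgav with Itgb1, Itgb3 or Itgb5. CD44, the cell surface receptor for hyaluronan, is known as a further receptor. In the injured or degenerating nervous system, Spp1 is one of the genes known to be raised in disease-associated microglia.

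The libraries held 36331214 to 43531426 UMIs over 5107 to 6433 barcodes, of which 4692 to 5640 cells were kept, with medians of 5254 to 7163 UMIs per cell. Cd8a, the alpha chain of CD8, gave 6 UMIs in 3 of 68 T-like cells of the CD8 KO-labelled library, against 44 to 72 UMIs in 12 of 35 to 25 of 78 T-like cells of the others. Over all kept cells, however, Cd8a stood at 32.5 CPM in the library labelled CD8 KO and at 1.49 to 2.19 CPM in the others, and 740 of its 1350 UMIs there lay in endothelial-like cells. Total Cd8a thus went against the label, and every direction given for that library rests on its label. Cells with Xist or Y-linked UMIs were 4 female and 3089 male in the library labelled CD8 KO, 1686 female and 1305 male in 33-week P301S hom, 3723 female and 0 male in 30-week P301S hom, and 2043 female and 1568 male in P301S neg. The sex of the cells and the CD8 label can thus not be told apart in the CD8 comparison. There were 44 barcode sequences found in more than 1 library. The comparisons made were P301S hom over P301S neg (both CD8 WT, at 30 weeks), CD8 KO over CD8 WT by label (P301S hom, at 30 weeks) and 33 over 30 weeks (P301S hom CD8 WT). The 30-week P301S hom library enters all 3.

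Spp1 (ENSMUSG00000029304) lies on chromosome 5 from 104435118 to 104441050 on the plus strand of mm10. Cd44 (ENSMUSG00000005087, chromosome 2, 102811141 to 102901665, minus strand), Itgav (ENSMUSG00000027087, chromosome 2, 83724397 to 83806916, plus strand) and Itgb1 (ENSMUSG00000025809, chromosome 8, 128685654 to 128733200, plus strand) are on other chromosomes. Itgb3 (ENSMUSG00000020689) lies on chromosome 11 from 104608000 to 104670476, and Itgb5 (ENSMUSG00000022817) on chromosome 16 from 33829665 to 33949338, both on the plus strand. A RefSeq promoter of build GRCm38.p6 was matched for 5 of the 6 genes. Spp1 had 2, of which only the first listed is shown and described. The promoters of Spp1 and Cd44 are shown because these were the members that were 1.5-fold or more higher in the macrophage-like cells of P301S hom. Each holds 300 bases, 250 before the transcription start site and 50 from it onward, written 5′ to 3′ on the strand of the gene. Capitals mark matches on either strand to the letters ACCACA (RUNX), GAGGAAGT (PU.1) and CCAAT (the CCAAT box). TGANTCA (AP-1) was also searched.
Spp1, chr5:104434861-104435160, plus strand: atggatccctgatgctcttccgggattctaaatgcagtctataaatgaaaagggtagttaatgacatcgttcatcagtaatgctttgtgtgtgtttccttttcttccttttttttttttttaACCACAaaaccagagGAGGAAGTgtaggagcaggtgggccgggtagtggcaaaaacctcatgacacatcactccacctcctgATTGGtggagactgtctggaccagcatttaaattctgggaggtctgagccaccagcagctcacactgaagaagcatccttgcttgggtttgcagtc
Cd44, chr2:102901616-102901915, minus strand: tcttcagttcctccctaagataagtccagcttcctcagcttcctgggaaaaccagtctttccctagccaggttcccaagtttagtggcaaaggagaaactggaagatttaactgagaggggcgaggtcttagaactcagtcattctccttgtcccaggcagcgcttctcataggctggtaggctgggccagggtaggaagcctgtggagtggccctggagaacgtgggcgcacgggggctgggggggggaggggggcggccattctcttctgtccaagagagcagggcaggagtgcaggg
The Spp1 window held the RUNX letters 128 bases and the PU.1 letters 113 bases before the start site, counted to the first base of the match, and ATTGG, the reverse complement of CCAAT, 46 bases before it. The matches did not overlap each other. Of all 32851 RefSeq promoters of this length, 16.8% held the RUNX letters, 3.2% the PU.1 letters, 37.4% the CCAAT box and 7.81% the AP-1 letters on either strand. The Cd44 window held none of the 4 sets of letters and the Spp1 window no AP-1 letters. These matches describe the sequence and do not show binding.

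In the P301S hom libraries Spp1 was mainly a transcript of macrophage-like cells, and in those cells it was at a far higher level than in P301S neg. Microglia, the macrophages that live in the cord, and the macrophages of its borders were counted together as macrophage-like. There were 2090 such cells in the library labelled CD8 KO, 1542 in 33-week P301S hom, 1729 in 30-week P301S hom and 1331 in P301S neg. The 9 macrophage markers C1qa, C1qb, C1qc, Csf1r, Ctss, Cx3cr1, Trem2, P2ry12 and Mrc1 were all detected in them in each library, with a summed level of 38280 to 39860 CPM, against 115.6 to 625 CPM in endothelial-like cells. Spp1 stood at 6176 CPM (6142 to 6210) in the CD8 KO-labelled library, 5670 CPM (5630 to 5710) in 33-week P301S hom, 6985 CPM (6946 to 7023) in 30-week P301S hom and 99.3 CPM (91.6 to 107) in P301S neg. The 3 P301S hom libraries were thus of one order and P301S neg was far below them. P301S hom over P301S neg at 30 weeks was 70.3-fold (65.0 to 76.2). Of all genes measured in this class, 11.7% were 1.5-fold or more higher and 35.4% were 1.5-fold or more lower, and of the 6 genes Spp1 and Cd44 were higher and Itgb3 was lower.

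The share of macrophage-like cells with an Spp1 UMI was 71.2% in the library labelled CD8 KO, 62.8% in 33-week P301S hom, 78.0% in 30-week P301S hom and 2.10% in P301S neg. After each cell was thinned to 1000 UMIs, with 38, 47, 31 and 144 shallower cells left out in that order, the shares were 46.2%, 41.4%, 52.5% and 0.927%. Median depths of the class were 9068, 8161, 10302 and 4985 UMIs. Endothelial-like cells serve here as the background class, and their shares were 16.9%, 10.6%, 19.3% and 0.847% at medians of 4446, 3705, 4298 and 5164 UMIs, and 3.56%, 3.13%, 4.68% and 0.0749% after thinning. The share in macrophage-like cells was thus above the endothelial-like share in each library, also at equal depth. In P301S neg this does not hold against every class. Before thinning, 28 of 1331 macrophage-like cells there had an Spp1 UMI, against 75 of 605 neutrophil-like and 12 of 328 B-like cells. Of 361 erythroid-like and 35 T-like cells there, 0 had one. The macrophage-like share of P301S neg was thus below those of neutrophil-like and B-like cells. Macrophage-like cells held 87.3% of the 143874 Spp1 UMIs of the library labelled CD8 KO, 97.6% of 80505 in 33-week P301S hom, 91.6% of 141193 in 30-week P301S hom and 54.1% (51.2 to 57.0) of 1149 in P301S neg. In P301S neg 2 cells held 555 of the 622 UMIs of the class, and without them macrophage-like cells held 67 of 594, or 11.3% (8.85 to 14.1), fibroblast-like cells 38.7% (34.8 to 42.8) and neutrophil-like cells 21.6% (18.3 to 25.1). A large part of the rest in the P301S hom libraries lay in a cluster led by Cd74 and other MHC class II genes, which was not named. It held 244, 48, 212 and 1 cells in the 4 libraries, with Spp1 at 5148, 2166 and 3771 CPM in the P301S hom ones. When it was counted with the macrophage-like cells, they held 97.2%, 98.8% and 98.0% of the Spp1 UMIs of the P301S hom libraries.

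**Figure D1:**
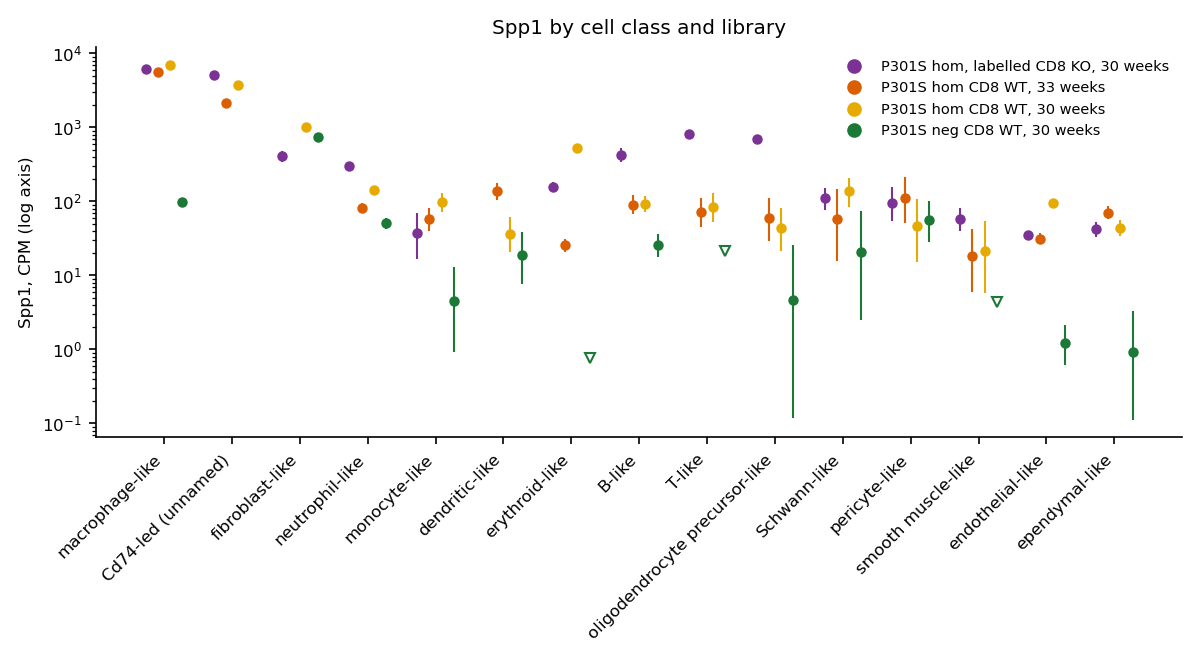
Spp1 in CPM on a log axis by cell class, with 1 point per library (left to right within a class: the library labelled CD8 KO, 33-week P301S hom, 30-week P301S hom, P301S neg) and bars for exact Poisson 95% intervals; open triangles mark the limit that 0 UMIs allow. Macrophage-like cells and the Cd74-led cluster are the highest classes of the P301S hom libraries, and fibroblast-like cells the highest of P301S neg.

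Within the macrophage-like class, Spp1 followed the clusters, which were made without the 6 genes. It was highest in clusters 3 and 5. Cluster 3, led by Lpl, which encodes lipoprotein lipase, had 12070 CPM in the library labelled CD8 KO, 11120 CPM in 33-week P301S hom and 11210 CPM in 30-week P301S hom. Cluster 5, led by Gpnmb, a glycoprotein of lysosome-rich macrophages, had 9684, 9027 and 11660 CPM in the same libraries, and so was above cluster 3 in 30-week P301S hom and below it in the others. These clusters scored highest for the markers of disease-associated microglia, and together with cluster 1 they held most of the macrophage-like cells of P301S hom. Cluster 3 took 22.6%, 18.03% and 26.3% of the macrophage-like cells of these libraries and cluster 5 took 14.7%, 22.7% and 20.8%, against 0.15% and 0.225% in P301S neg. Cluster 1, led by the chemokine gene Ccl4, had 1356, 868, 1063 and 482 CPM in the library labelled CD8 KO, 33-week P301S hom, 30-week P301S hom and P301S neg, and took 41.0%, 36.7%, 36.3% and 6.69% of their macrophage-like cells. Cluster 2, led by Crybb1 with the microglia genes P2ry12 and Tmem119, held 73.4% of the macrophage-like cells of P301S neg and 9.54 to 13.04% of those of P301S hom. It had the lowest Spp1, at 57.6, 44.8, 85.0 and 4.86 CPM in the same order. Cluster 11, with low UMI counts and led by P2ry12, had 865, 165, 421 and 30.4 CPM. Clusters 1, 3 and 5, and the small clusters 34 and 41, were named macrophage-like by their overall marker levels, with none of the class's markers among their 10 leading genes.

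Both the makeup of the class and the level within clusters differed between P301S hom and P301S neg. P301S hom over P301S neg was 17.5-fold (10.97 to 28.8) within cluster 2 and 13.8-fold (6.83 to 32.7) within cluster 11. The 85.0 CPM of cluster 2 in 30-week P301S hom lay below the 95.45 CPM of its endothelial-like cells, the background class. Those had 42.2 CPM without 4 cells with at least 10 Spp1 UMIs, and 1.21 CPM in P301S neg. How much of the cluster 2 fold is background was not tested. Clusters 3 and 5 held too few P301S neg cells for a ratio. In P301S neg, 2 cells with 290 and 265 Spp1 UMIs held 89.2% of the 622 UMIs of the class. They had 16440 and 16986 UMIs in all, were both called female, and lay in clusters 3 and 1. The remaining cells held 67 UMIs in 26 cells, or 10.75 CPM (8.33 to 13.7), and against them P301S hom was 649.5-fold higher (511 to 838). Within cluster 1 the ratio was 2.205-fold (1.96 to 2.49) with the high cell and 30.5-fold (19.7 to 49.99) without it. Between cells with female transcripts only, Spp1 was at 6963 CPM in P301S hom and 188 CPM in P301S neg, a fold of 37.0 (34.1 to 40.3).

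Spp1 was unevenly spread also in P301S hom. The tenth of macrophage-like cells with most Spp1 held 74.9% of its UMIs in the library labelled CD8 KO, 79.5% in 33-week P301S hom and 69.1% in 30-week P301S hom. Cells with at least 10 Spp1 UMIs were 821 (39.3%), 497 (32.2%) and 765 (44.2%) in these libraries and 3 (0.225%) in P301S neg. The highest single cells had 2440, 3282 and 2636 UMIs, against 290 in P301S neg.

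**Figure D2:**
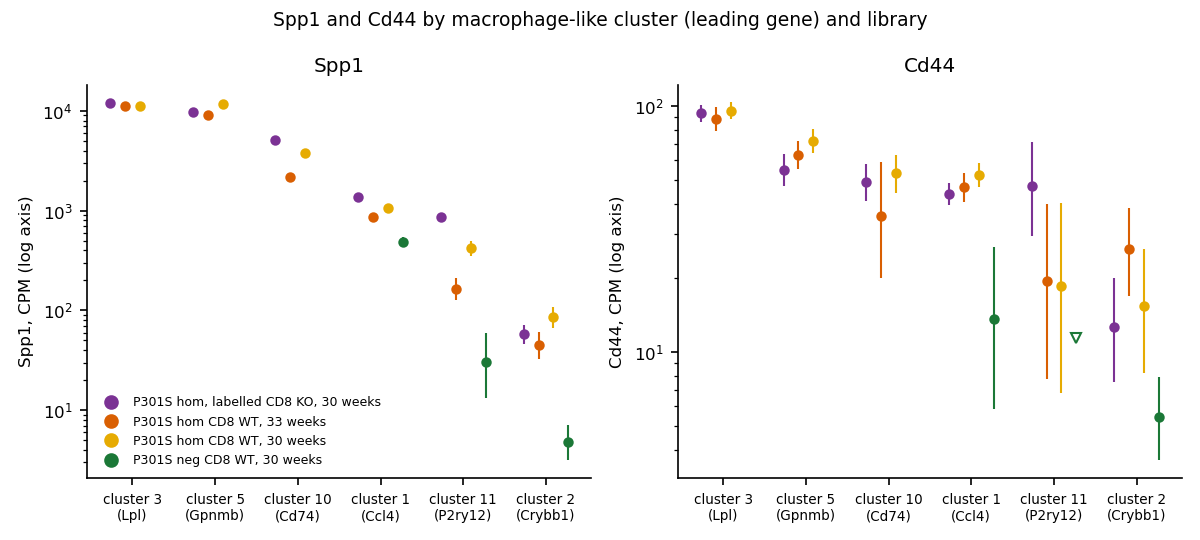
Spp1 (left) and Cd44 (right) in CPM on log axes for the main macrophage-like clusters and the Cd74-led cluster, named by their leading gene, with 1 point per library, exact Poisson 95% intervals and an open triangle for the limit that 0 UMIs allow. Spp1 is 9027 CPM or more in the Lpl- and Gpnmb-led clusters of the P301S hom libraries and 85.0 CPM or less in the Crybb1-led cluster of each library, and Cd44 follows a similar order over a smaller range.

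The library labelled CD8 KO and the 33-week library differed by less than 1.5-fold from 30-week P301S hom in Spp1 over the whole macrophage-like class, while single clusters differed more. With the values given above, the fold was 0.884 (0.877 to 0.891) for the CD8 KO label and 0.812 (0.805 to 0.819) for 33 over 30 weeks. Both lie inside 1.5-fold, as did each of the 6 genes in this class, where 4.42% of genes were higher and 2.58% lower at that fold for the CD8 KO label and 3.17% and 2.83% for 33 over 30 weeks. Counting error alone does not cover either difference, but its intervals take no account of Spp1 lying mostly in few cells. In addition, 1 library a group gives no measure of the spread between mice of 1 group and sex. For the CD8 KO label the direction differed between clusters, with a fold of 1.275 in cluster 1, 0.678 in cluster 2, 1.08 in cluster 3, 0.831 in cluster 5 and 1.365 in the Cd74-led cluster. In cluster 11 it was 2.06 (1.69 to 2.52), from 404 UMIs in the library labelled CD8 KO and 137 in 30-week P301S hom. For 33 over 30 weeks it was below 1 in each of the 5 clusters measured, at 0.816 in cluster 1, 0.527 in cluster 2, 0.992 (0.980 to 1.004) in cluster 3, 0.774 in cluster 5 and 0.393 (0.285 to 0.536) in cluster 11, from 60 UMIs at 33 weeks and 137 at 30 weeks. Cluster 11 for both comparisons, and cluster 2 for 33 over 30 weeks, were thus past 1.5-fold. Cluster 2 had 44.8 CPM at 33 weeks and 85.0 CPM at 30 weeks, and the endothelial-like background had 31.45 and 95.45 CPM. How much of this cluster 2 fold is background was not tested. The sex of the cells differed between these libraries too, and its part in the folds was not tested. Male cells of the library labelled CD8 KO and male cells of 33-week P301S hom had 6384 and 6515 CPM, a fold of 0.980, although their ages differ too. Female cells of P301S hom had 4759 CPM at 33 weeks and 6963 CPM at 30 weeks, a fold of 0.683 (0.674 to 0.693). Within the 33-week library the female cells, with 4759 CPM, were below the male cells, with 6515 CPM, a fold of 0.730 (0.719 to 0.742). In P301S neg the female cells, which include the 2 high cells, had 188 CPM and the male cells 14.2 CPM, a fold of 13.2 (9.14 to 19.75). Each pool was 2 mice, so the female and male cells of these libraries came from different mice. At 33 weeks this fold is further from 1 than both folds of the whole class. Sex and mouse cannot be told apart there.

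Outside the macrophage-like class, fibroblast-like cells, the collagen-making cells of the meninges and vessel walls, were the highest class of P301S neg. Spp1 was at 405 CPM in 38 cells of the library labelled CD8 KO, 1008 CPM in 37 cells of 30-week P301S hom and 745.5 CPM in 36 cells of P301S neg, with 134, 236 and 230 UMIs. 33-week P301S hom had 21 such cells, too few for a level. A UMI was found in 15, 11 and 11 of these cells. In P301S neg fibroblast-like cells held 20.02% of all Spp1 UMIs. Most of these UMIs lay in few cells, as 3, 5 and 7 cells with at least 10 Spp1 UMIs held 105, 217 and 215 of them. The other fibroblast-like cells had 96.4, 88.0 and 72.6 CPM (the library labelled CD8 KO, 30-week P301S hom, P301S neg). The summed level of 4 macrophage genes (C1qa, C1qb, C1qc and Ctss) in the fibroblast-like cells with at least 10 Spp1 UMIs was 526, 165 and 853 CPM, against 2383, 106.5 and 344 CPM in the other fibroblast-like cells of the same library. The fibroblast-like cells high in Spp1 were thus below the others in these genes in the CD8 KO-labelled library and above them in 30-week P301S hom and P301S neg.

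Neutrophil-like cells had Spp1 at 297, 81.4, 144 and 50.5 CPM in the library labelled CD8 KO, 33-week P301S hom, 30-week P301S hom and P301S neg. A UMI was found in 23.9%, 17.8%, 29.4% and 12.4% of them, and in 12.7%, 9.74%, 14.6% and 4.81% after thinning. In P301S neg this was above the endothelial-like background of 0.0749% after thinning, and no neutrophil-like cell there or in 33-week P301S hom had 10 Spp1 UMIs. In the library labelled CD8 KO 1 neutrophil-like cell held 107 of the 186 UMIs, and the others had 127.6 CPM. In 30-week P301S hom 3 cells held 44 of 377 UMIs, and the others had 128 CPM. The 297 CPM thus rests largely on 1 cell. Spp1 was also set against the UMIs of the 4 macrophage genes. Per 1000 UMIs of the 4 genes, macrophage-like cells had 178, 171, 208.5 and 3.25 Spp1 UMIs in the 4 libraries. Endothelial-like cells had 76.5, 94.1, 179 and 12.8, and neutrophil-like cells had 344, 205, 269.7 and 259. The 344 includes the 1 cell with 107 Spp1 UMIs. In P301S neg the endothelial-like and neutrophil-like ratios were both above that of its macrophage-like cells. The part of free RNA in these values was not tested.

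In several other classes a few cells carried most of the Spp1, and those cells were high in the 4 macrophage genes. In erythroid-like cells of 30-week P301S hom, 5 cells held 1150 of 1188 Spp1 UMIs, with the 4 genes at 20110 CPM in them and 598 CPM in the other erythroid-like cells. In T-like cells of the CD8 KO-labelled library, 2 cells held 226 of 238 UMIs, with the 4 genes at 18080 CPM in them and 485 CPM in the others. In oligodendrocyte precursor-like cells of that library, 2 cells held 232 of 251 UMIs, with 21000 CPM in them and 998 CPM in the others. Levels of Spp1 in these classes therefore rest on cells that also carry macrophage transcripts. No Spp1 UMI was found in the erythroid-like, T-like or smooth muscle-like cells of P301S neg, which, at 3 counts, allows up to 0.758, 21.1 and 4.36 CPM.

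Among the receptors, Cd44 had its highest levels in blood-type leukocytes. Monocyte-like cells had 618, 453, 587 and 547 CPM in the library labelled CD8 KO, 33-week P301S hom, 30-week P301S hom and P301S neg. Neutrophil-like cells followed, with 386, 401, 317 and 367 CPM, and their intervals overlapped those of monocyte-like cells only at 33 weeks. Dendritic-like cells stood at 182, 211 and 177 CPM in the CD8 WT libraries and T-like cells at 78.2, 107, 98.0 and 56.2 CPM. Endothelial-like cells had little Cd44, with 0.648, 1.72, 1.64 and 1.11 CPM. In macrophage-like cells Cd44 stood at 60.3 CPM in the library labelled CD8 KO, 61.3 CPM in 33-week P301S hom, 69.8 CPM in 30-week P301S hom and 6.39 CPM in P301S neg, from 1225, 849, 1293 and 40 UMIs. P301S neg was again far below the others. P301S hom over P301S neg was 10.9-fold (7.99 to 15.4), while the fold was 0.863 (0.798 to 0.934) for the CD8 KO label and 0.877 (0.804 to 0.957) for 33 over 30 weeks.

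The share of macrophage-like cells with a Cd44 UMI was 32.3%, 31.5%, 39.7% and 2.85% in the same order, and 4.39%, 6.56%, 5.54% and 1.01% after thinning, against 0.40 to 0.73% of endothelial-like cells before thinning. Macrophage-like cells held 57.2%, 35.9% and 41.0% of all Cd44 UMIs of the P301S hom libraries and 2.13% of those of P301S neg, where neutrophil-like cells held 49.6% and monocyte-like cells 19.7%. Across clusters Cd44 ran with Spp1, being highest in the Lpl-led cluster 3, at 93.0, 88.3 and 95.3 CPM in the P301S hom libraries. In the Crybb1-led cluster 2 it was at 12.7, 26.1, 15.4 and 5.44 CPM in the 4 libraries. Within cluster 1 P301S hom over P301S neg was 3.87-fold (1.94 to 9.04) and within cluster 2 it was 2.82-fold (1.34 to 5.63). Both are smaller than the fold over the whole class, whose makeup by cluster differed as described for Spp1.

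Itgav, the alpha v subunit, was highest in oligodendrocyte precursor-like cells, at 134, 168, 199 and 177 CPM in the library labelled CD8 KO, 33-week P301S hom, 30-week P301S hom and P301S neg. Schwann-like cells, the myelin-making cells of nerve roots, had 104, 42.9, 64.9 and 103 CPM, and their intervals overlapped those of the precursor-like cells in the library labelled CD8 KO and in P301S neg. Macrophage-like cells had 74.1, 63.7, 69.6 and 54.4 CPM and ependymal-like cells 45.6, 45.3, 57.3 and 42.1 CPM. By number, macrophage-like cells held 68.1%, 69.9% and 67.0% of the Itgav UMIs of the P301S hom libraries and 35.1% of those of P301S neg. P301S hom over P301S neg in macrophage-like cells was 1.28-fold (1.13 to 1.44).

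Itgb1, the beta subunit with the most alpha partners, was a gene of vessel walls. Smooth muscle-like cells had 844, 668, 713 and 734 CPM in the same order and pericyte-like cells, which wrap capillaries, 493, 622, 490 and 540 CPM. Endothelial-like cells had 265, 247, 237 and 260 CPM, fibroblast-like cells 248, 286 and 295 CPM without the 33-week library, and neutrophil-like cells 15.96, 18.03, 18.7 and 30.8 CPM. Smooth muscle-like and pericyte-like intervals overlapped in P301S hom CD8 WT at both ages and not in the other libraries. Macrophage-like cells had 93.4, 91.7, 94.4 and 115 CPM, with P301S hom over P301S neg at 0.819 (0.751 to 0.895). Endothelial-like cells held 24.9%, 23.2%, 22.2% and 34.1% of all Itgb1 UMIs.

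Itgb3, the beta subunit of platelets and osteoclasts, gave few UMIs in any class. Its intervals overlapped between most neighbouring classes, so little order can be read from it. Dendritic-like cells had 12.1, 46.6 and 26.9 CPM in 33-week P301S hom, 30-week P301S hom and P301S neg. They stood above the next class beyond their interval at 30 weeks in P301S hom alone. The dendritic-like cluster was led by Pf4, a platelet gene, and the part of platelet transcripts in these values was not tested. Macrophage-like cells had 5.95, 5.92, 5.78 and 13.2 CPM in the library labelled CD8 KO, 33-week P301S hom, 30-week P301S hom and P301S neg, from 121, 82, 107 and 83 UMIs. The P301S hom libraries differed by less than their counting intervals and P301S neg was above them. The fold at 30 weeks was 0.436 (0.324 to 0.588). Within clusters it was 1.02 (0.370 to 3.90) in cluster 1, from 43 UMIs in P301S hom and 4 in P301S neg, and 0.7295 (0.321 to 1.46) in cluster 2, from 9 and 75 UMIs in that order, so both intervals include 1. It was 0.305 between female cells only, with 5.84 CPM in P301S hom and 19.1 CPM in P301S neg. No Itgb3 UMI was found in the oligodendrocyte precursor-like cells of any library, the class highest in Itgav, which allows up to 8.37 to 18.03 CPM.

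Itgb5, which pairs with alpha v alone, was a macrophage-like transcript in all 4 libraries. It stood at 1044, 965, 993 and 1076 CPM in the library labelled CD8 KO, 33-week P301S hom, 30-week P301S hom and P301S neg, and a UMI was found in 96.3%, 94.7%, 96.3% and 89.3% of these cells. The Cd74-led cluster matched it within its intervals in the P301S hom libraries. The class held 82.0%, 92.5%, 85.0% and 86.9% of all Itgb5 UMIs. Pericyte-like cells came next among named classes, at 271, 324, 305 and 355 CPM, with fibroblast-like cells at 266, 167 and 217 CPM in the libraries other than the 33-week one. P301S hom over P301S neg in macrophage-like cells was 0.923 (0.897 to 0.949).

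**Figure D3:**
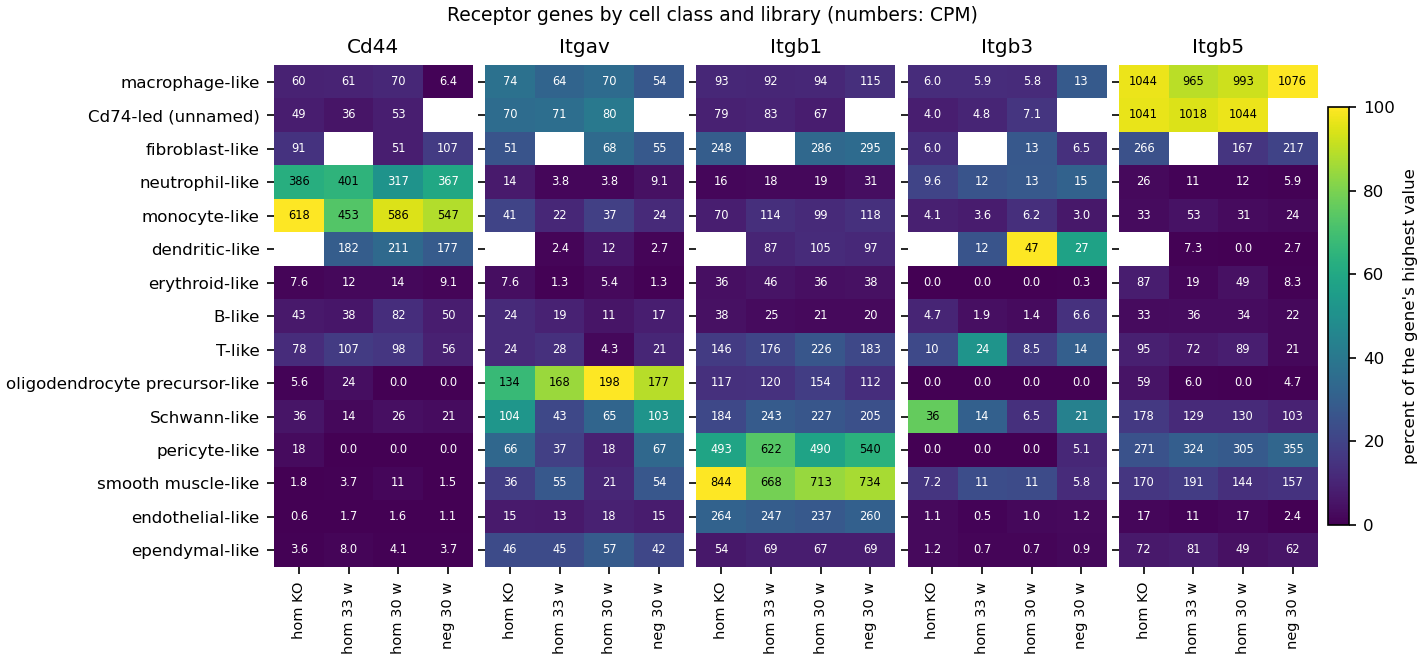
Levels of the 5 receptor genes by cell class (rows) and library (columns, left to right: the library labelled CD8 KO, 33-week P301S hom, 30-week P301S hom, P301S neg); numbers are CPM, colours the percent of each gene's highest value, and white marks under 30 cells. The leading class is monocyte-like for Cd44, precursor-like for Itgav, smooth muscle-like for Itgb1 and, among the named classes, macrophage-like for Itgb5, while no 1 class leads for Itgb3.

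The scaling bears on the small folds in macrophage-like cells. The median log2 ratio of all genes for P301S hom over P301S neg was -0.36, and TMM scaling, which centres on the bulk of genes, shifted all values up by 0.42. With it 22.3% of genes were higher and 16.3% lower at 1.5-fold. On the log2 scale Itgb1 was then at 0.13 in place of -0.29 and Itgb5 at 0.30 in place of -0.12, so the direction of these 2 genes depends on the scaling. Itgav was at 0.77 in place of 0.35, and so past 1.5-fold. Spp1 at 6.56, Cd44 at 3.87 and Itgb3 at -0.78 kept the side of 1.5-fold they had with CPM.

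**Figure D4:**
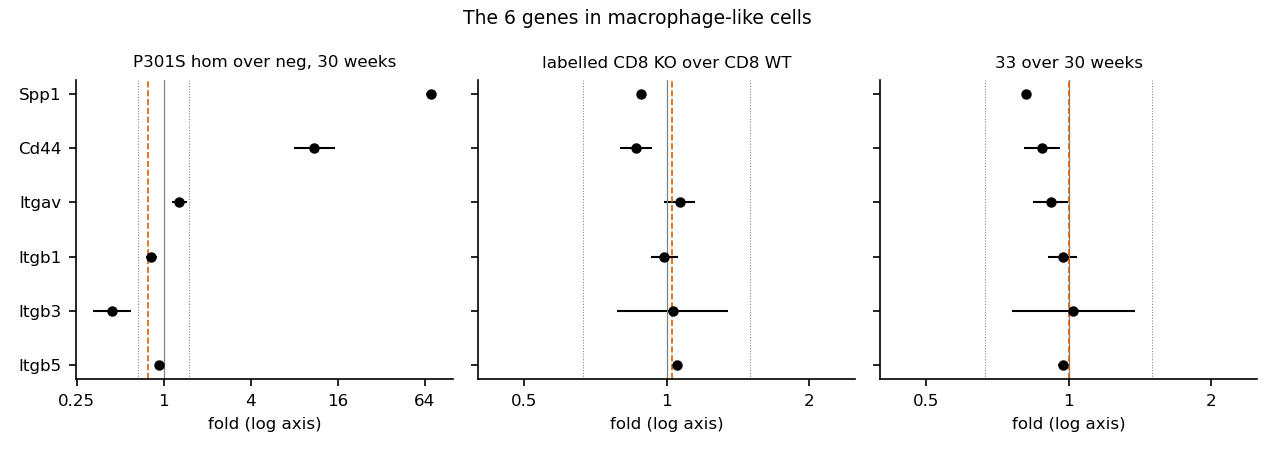
Folds of the 6 genes in macrophage-like cells on a log axis with exact conditional-binomial 95% intervals, in 3 panels for P301S hom over P301S neg, the CD8 KO label and 33 over 30 weeks; dotted lines mark 1.5-fold and the dashed line the median of all genes. Spp1 at 70.3-fold and Cd44 at 10.9-fold stand apart in the left panel, and all 6 genes lie within 1.5-fold in the other panels.

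Over all named classes, receptor values with at least 20 UMIs and 50 cells a library numbered 27 for P301S hom over P301S neg, of which 8 were 1.5-fold or more higher and 4 lower. Of all gene and class pairs 26.7% passed that fold in either direction. For the CD8 KO label 3 of 24 were higher and 3 lower (2 and 4 with TMM scaling), against 17.7% of all pairs, and for 33 over 30 weeks 2 of 28 were higher and 4 lower, against 14.8%. Beside Cd44 and Itgb3 in macrophage-like cells, the largest fold of P301S hom over P301S neg was that of Itgb5 in endothelial-like cells, at 17.0 CPM in P301S hom and 2.41 CPM in P301S neg, or 7.06-fold (4.44 to 11.6). On the log2 scale this is 2.82, and it was 2.04 with at least 1000 UMIs per cell, 0.88 with doublets kept, 1.40 at clustering resolution 2.0, 1.98 with classes called cell by cell, 1.61 as a mean of single-cell CPM and 3.47 in female cells, past 1.5-fold in each. The summed macrophage markers in these cells were at 625 CPM in P301S hom and 115.6 CPM in P301S neg. Per 1000 UMIs of the 4 macrophage genes, Itgb5 was at 31.9 in P301S hom and 25.6 in P301S neg in endothelial-like cells, and at 29.6 in P301S hom and 35.3 in P301S neg in macrophage-like cells. Itgb5 was likewise 5.90-fold higher in erythroid-like cells, with 33.6 per 1000 UMIs of the 4 genes in P301S hom and 32.3 in P301S neg (log2 2.56, with 1.46 as a mean of single-cell CPM and 1.18 in female cells). Across all genes of endothelial-like cells 4.68% were higher and 7.04% lower at 1.5-fold in this comparison. In neutrophil-like cells Itgav (0.420) and Itgb1 (0.607) were lower and Itgb5 (1.997) was higher, from 31 UMIs in P301S hom and 15 in P301S neg. As a mean of single-cell CPM this Itgb5 value was 0.04 on the log2 scale, and in female cells 2.16. In B-like cells Cd44 (1.632) and Itgb5 (1.531) were higher and Itgav (0.6655) was lower. Itgav in monocyte-like cells (1.576) and Cd44 in erythroid-like cells (1.574) complete the 12 values past 1.5-fold.

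For the CD8 KO label Itgb5 was 2.16-fold (1.10 to 4.075) in neutrophil-like cells, 0.10 on the log2 scale with doublets kept, and 1.77-fold in erythroid-like cells. Itgb1 was 1.79-fold in B-like and 0.648-fold in T-like cells, and Cd44 0.532-fold in erythroid-like and 0.521-fold in B-like cells. No receptor passed that fold in endothelial-like cells for the CD8 KO label, where 3.63% of genes were higher and 3.65% lower. For 33 over 30 weeks Itgb5 was 1.64-fold (1.22 to 2.23) in ependymal-like cells and 1.69-fold (0.877 to 3.39) in monocyte-like cells, the second from 29 UMIs at 33 weeks and 15 at 30 weeks. Itgb5 was 0.6345-fold in endothelial-like cells, where 3.54% of genes were higher and 5.09% lower, and 0.388-fold (0.285 to 0.526) in erythroid-like cells. Cd44 was 0.461-fold in B-like cells and Itgav 0.583-fold (0.256 to 1.28) in monocyte-like cells. Many of these calls rest on few UMIs and were lost under at least 1 alternative setting. On the log2 scale, where 1.5-fold is 0.58, the values that missed it for P301S hom over P301S neg were 0.14 to 0.51 for Itgav in monocyte-like cells, -0.55 to -0.50 for Itgb1 in neutrophil-like cells, 0.32 for Cd44 and -0.48 and -0.21 for Itgav in B-like cells, and 0.20 to 0.55 for Cd44 in erythroid-like cells. For the CD8 KO label they were -0.54 to 0.00 for Itgb1 in T-like cells, 0.50 for Itgb1 in B-like cells, -0.53 for Cd44 in erythroid-like cells and 0.48 for Itgb5 in erythroid-like cells. For 33 over 30 weeks they were -0.44 for Itgav and -0.01 to 0.53 for Itgb5 in monocyte-like cells, -0.53 to -0.19 for Itgb5 in endothelial-like cells and 0.33 to 0.56 for Itgb5 in ependymal-like cells.

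Spp1 and receptor transcripts were found in the same cells. An Spp1 UMI and a UMI of at least 1 receptor gene were found together in 70.6%, 62.8% and 77.9% of the macrophage-like cells of the P301S hom libraries (the library labelled CD8 KO, 33 weeks, 30 weeks) and in 2.19% of those of P301S neg, over the 2052, 1495, 1698 and 1187 cells with at least 1000 UMIs. A UMI of any receptor gene was found in 98.1%, 98.2%, 98.6% and 96.9% of these cells. The shares with both could therefore hardly differ from the shares with an Spp1 UMI. Itgav was detected with at least 1 of the 3 beta subunit genes in 41.4%, 36.5%, 44.2% and 20.6%. These shares are from cells that were not thinned, and depth was lower in P301S neg.

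To see how receptors vary with Spp1 within the class, the cells of each P301S hom library were put in 4 bins by their Spp1 UMIs per 10000: none, to 10, to 50 and over 50. The bins are ranges and not cell types. Cd44 stood at 39.0, 50.9, 63.6 and 81.7 CPM over these bins in the library labelled CD8 KO. It stood at 36.9, 51.7, 78.0 and 83.7 CPM at 33 weeks and at 39.0, 57.6, 71.5 and 93.0 CPM in 30-week P301S hom. The order of the bins was thus the same in the 3 libraries. The highest bin over the lowest was 2.09-fold (1.73 to 2.55), 2.27-fold (1.83 to 2.83) and 2.385-fold (1.92 to 2.99). Median depth also increased over the bins, to 13352, 12956 and 14367 UMIs in the highest, against 5613, 5629 and 5942 in the lowest, and among cells with at least 5000 UMIs the Cd44 folds were 2.18, 2.26 and 2.16. Itgb5 went the other way, at 0.790, 0.753 and 0.796 in the highest bin over the lowest. Itgb3 was at 0.325 (0.177 to 0.578), 0.753 (0.350 to 1.58) and 0.608 (0.334 to 1.13), Itgav at 0.968, 1.02 and 1.06, and Itgb1 at 1.02, 1.14 and 0.977.

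**Figure D5:**
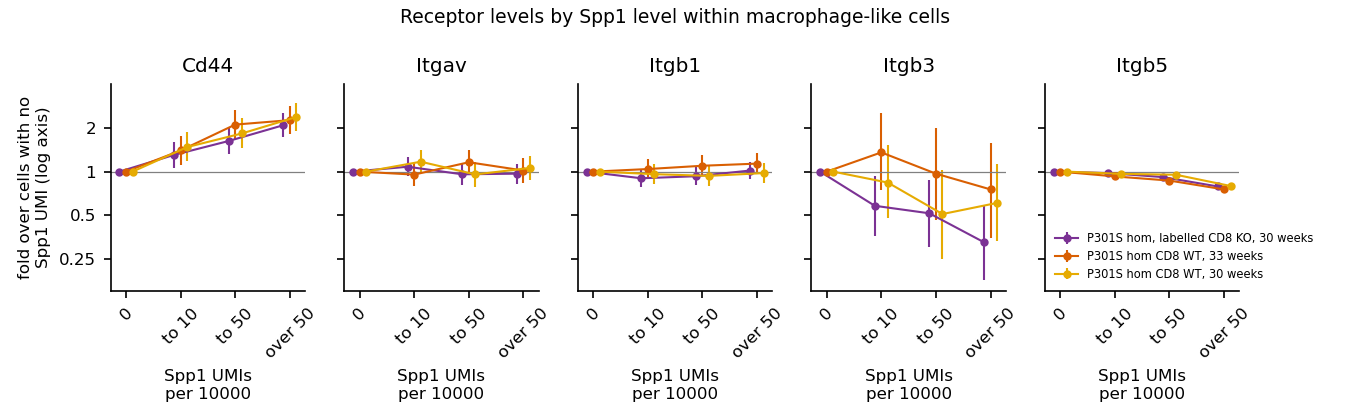
Fold of each receptor gene over macrophage-like cells with no Spp1 UMI (log axis), for cells binned by Spp1 UMIs per 10000, with 1 line per P301S hom library and exact conditional-binomial 95% intervals. Cd44 is above 2-fold in the highest bin of each library, Itgb5 is between 0.753 and 0.796 there, and Itgav and Itgb1 stay near 1.

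Lists of related genes were read in macrophage-like cells, where, for P301S hom over P301S neg, 11.7% of all genes were 1.5-fold or more higher and 35.4% lower with CPM, and 22.3% and 16.3% with TMM scaling. Of 6 other integrin subunits of osteopontin receptors 4 were measured, and for P301S hom over P301S neg 3 were 1.5-fold or more higher and 1 lower, with a median log2 ratio of 1.59. Itga4, the alpha 4 subunit, was at 14.4 CPM in P301S hom and 1.60 CPM in P301S neg, a fold of 8.998 (4.82 to 18.98). Itga5, the alpha 5 subunit of the fibronectin receptor, was at 2.69-fold, Itgb8 at 3.38-fold from 30 UMIs in P301S hom and 3 in P301S neg, and Itga9 at 0.168-fold. Of 9 other ligands of CD44 and alpha v integrins 5 were measured, with 2 higher, 1 lower and a median of 0.29. Fn1, which encodes fibronectin, was at 139.9 CPM in P301S hom and 5.43 CPM in P301S neg, a fold of 25.8 (18.4 to 37.3), Mfge8 at 1.755-fold and Vtn, which encodes vitronectin, at 0.238-fold. The measured genes of these 2 lists thus moved in both directions, with Itga9 and Vtn the ones that were lower. Vtn is also a pericyte marker and the leading gene of the pericyte-like cluster. The part of free RNA in its macrophage-like values was not tested.

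Of 9 enzymes known to act on osteopontin 4 were measured, with 3 higher, 1 lower and a median of 2.20. Mmp12, the macrophage metalloelastase, had 5274 UMIs in P301S hom and 2 in P301S neg, a fold of 892 with a counting interval of 247 to 7367. Fam20c, a kinase of secreted phosphoproteins, was at 181 CPM in P301S hom and 14.9 CPM in P301S neg, or 12.2-fold, Acp5, an acid phosphatase of osteoclasts and macrophages, at 1.73-fold, and Tgm2, a transglutaminase, at 0.537-fold. Of 13 adaptors that link integrins or CD44 to the cytoskeleton all were measured, with 1 higher, 5 lower and a median of -0.35, close to that of all genes, as the share that was lower is to the 35.4% of all genes. The highest was Ezr, which encodes ezrin, at 2.20-fold, and the lowest were Fermt2 at 0.282-fold, Src at 0.425-fold and Pxn at 0.456-fold. Over these lists 9 of 26 measured genes were higher and 8 lower with CPM, and 11 and 5 with TMM scaling. None of the other genes of the SPP1 cluster family (Ibsp, Dmp1, Dspp and Mepe) reached 20 UMIs. For the CD8 KO label Vtn (1.675-fold, with the free RNA part not tested) and Fermt2 (1.58-fold) were higher and no list member was lower. For 33 over 30 weeks Vcl (0.526-fold) was lower and none was higher.

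The genes whose levels ran most like Spp1 were named by Pearson correlation of log2(CPM + 10), a description with no test, since the points share libraries and depth. Over 54 sums of a class in a library these were Igf1 (0.861), Ctsd (0.803), Cxcl16 (0.775), Fmn1 (0.768), Apoc4 (0.756), Chst1 (0.753), Fcrls (0.747) and Olfml3 (0.737). Igf1 encodes insulin-like growth factor 1 and Ctsd the lysosomal protease cathepsin D. Over 19 sums of a macrophage-like cluster in a library they were Aldoa (0.971), Lpl (0.969), Cybb (0.964), Ass1 (0.964), Fam20c (0.963), Cstb (0.962), Fabp5 (0.959) and Lgals3 (0.958). Lpl and Fabp5, a fatty acid binding protein gene, handle lipids, and Cybb encodes a subunit of the phagocyte NADPH oxidase. Over the same 19 sums the receptors stood at 0.902 for Cd44, 0.029 for Itgav, -0.386 for Itgb1, -0.647 for Itgb3 and -0.776 for Itgb5. Over the 54 class sums they stood at 0.214, 0.192, -0.132, 0.041 and 0.542 in that order. Cd44 thus ran with Spp1 among macrophage-like clusters and little across classes, and Itgb5 across classes but inversely among the clusters. The genes most like each receptor over the 54 sums were Cybb, Lsp1 and Arhgap9 (0.903, 0.897 and 0.876) for Cd44, Slc39a6, Tspan7 and Rac3 (0.831, 0.822 and 0.813) for Itgav, and Rras, Tmem109 and Mfge8 (0.891, 0.868 and 0.862) for Itgb1. They were Emp3, Galnt6 and Plp2 (0.674, 0.630 and 0.623) for Itgb3 and Axl, Plxdc2 and Epb41l2 (0.831, 0.815 and 0.788) for Itgb5.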

How the data were processed

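The authors deposited UMI counts, not normalized, for every gene and barcode called as a cell. Cell Ranger 6.0.1 made them, per the file headers; the submitters' processing notes name mm10, and the annotation used upstream is not given in the sources used here. Gene positions come from GENCODE M21 and promoters from RefSeq. Members and lists were chosen with earlier results of these data known.

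Cells were kept above minimums of 500 UMIs and 200 genes and up to 15% mitochondrial UMIs. Scrublet (scanpy 1.11.5, expected rate 6%) removed 69, 42, 59 and 98 doublets (the library labelled CD8 KO, 33-week and 30-week P301S hom, P301S neg). This left 20186 of 22644 barcodes. Clustering used 2000 variable genes without the 6 members and sex-linked, mitochondrial and ribosomal genes, 30 principal components, 15 neighbours and Leiden (igraph 0.11.9) at resolution 1.0, giving 46 clusters. Clusters took the class whose markers were highest, with at least 3 detected in 10% of cells; mixed clusters were set aside. Names such as T-like rest on RNA markers alone.

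Levels needed 30 cells, ratios 50 cells in both libraries and 20 UMIs together, and a call meant 1.5-fold. The ratio intervals were run on simulated Poisson counts, the model that they assume. Over 11661, 12113 and 11783 genes (P301S hom over neg, CD8 KO label, 33 over 30 weeks) they held the true fold of unchanged genes in 95.8%, 95.6% and 95.9%. This checks the calculation alone, since UMIs clumped in few cells were not simulated. Named genes were the 6 members, up to 3 highest and 3 lowest of each list, and those most like Spp1 (8) or a receptor (3) by correlation among genes with at least 100 UMIs; not all are printed. Alternatives were other filters, classes, a resolution of 2.0, TMM scaling, single-cell means and cells of 1 sex. The Cd74-led cluster, the 2 high P301S neg cells and the female cells at 33 over 30 weeks were added after seeing the data. The scripts ran in Python 3.11.15 with pandas 2.3.3, scipy 1.17.1, numpy 2.4.6, scikit-learn 1.9.0, matplotlib 3.10.9 and anndata 0.12.19.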

Additional observations from a re-analysis of the deposited data

Results flagged for a closer look

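A set-aside cluster led by Calca, mixed in its markers and almost confined to the library labelled CD8 KO (198 of its 203 cells), held Spp1 at 1791 CPM, from 2423 UMIs. It was looked at because it lies outside the classes compared. The other libraries held 3, 0 and 2 of its cells (33-week P301S hom, 30-week P301S hom, P301S neg). There were 23 cells with at least 10 Spp1 UMIs, and they held 2247 of the 2423. The summed level of C1qa, C1qb, C1qc and Ctss was 36850 CPM in these cells and 14830 CPM in the other cells of the cluster.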

How the results depend on the processing

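No paired analysis was possible because each group is 1 library, and for the same reason no library could be left out. Values are log2 folds unless said otherwise, and their causes were not tested. Spp1 in macrophage-like cells for P301S hom over P301S neg (6.14) was 6.56 with TMM scaling, 6.93 as a mean of single-cell CPM, 5.21 in female cells only and 9.34 without the 2 high P301S neg cells. For the CD8 KO label (-0.18) it was -0.12 with at least 1000 UMIs per cell, -0.16 with at most 10% mitochondrial UMIs, -0.14 with classes called cell by cell, -0.21 with TMM, -0.27 as a single-cell mean, -0.03 between male cells (the other library then being the 33-week one) and -0.13 with the Cd74-led cluster. For 33 over 30 weeks (-0.30) it was -0.25, -0.28 and -0.25 under the first 3 of these, -0.40 as a single-cell mean, -0.25 with the Cd74-led cluster and -0.55 in female cells. Receptor values past 1.5-fold numbered 12 for P301S hom over P301S neg and 6 as single-cell means, and 6 for the CD8 KO label, 11 with cell-by-cell classes and 0 between male cells, where only 11 values could be computed and none of the 6 was among them. The macrophage-like share of Spp1 UMIs in P301S neg (54.1%) was 11.28% without the 2 high cells. In the library labelled CD8 KO (87.28%) it was 97.25% with at least 1000 UMIs, 88.84% with at most 10% mitochondrial UMIs, 85.27% with doublets kept, 87.5% at resolution 2.0, 95.65% with cell-by-cell classes and 97.16% with the Cd74-led cluster. At 33 weeks (97.62%) it was 98.79%, 98.19%, 95.31%, 96.6% with cell-by-cell classes and 98.76% with the Cd74-led cluster. In 30-week P301S hom (91.61%) it was 98.05%, 93.6%, 89.32%, 91.83%, 96.73% and 98.0%. Thinning put the share of macrophage-like cells with Spp1 at 46.2%, 41.4%, 52.53% and 0.9267% (the library labelled CD8 KO, 33 weeks, 30 weeks, P301S neg). With no minimum of UMIs, list members past 1.5-fold numbered 7 in place of 2 for the CD8 KO label and 5 in place of 1 for 33 over 30 weeks. Of 740 receptor values recomputed, 675 kept their side of 1.5-fold, and 4 called ones changed sign: Itgb5 in B-like cells for P301S hom over P301S neg (0.61) was -0.25 with at least 1000 UMIs, -0.25 with at most 10% mitochondrial UMIs and -0.22 with doublets kept, and in monocyte-like cells for 33 over 30 weeks (0.76) it was -0.01 with doublets kept. Keeping the mixed clusters and adding the Cd74-led cluster each left 79 of 79 values on their side. The mixed clusters joined no class that had ratios, and the Cd74-led cluster joined macrophage-like cells alone. Many of the 740 values thus could not change. The few UMIs of Itgb3 limit its precision.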
